A study of Homo sapiens with 12 samples.

Results

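The genes described here are 10 markers of the epithelial and the mesenchymal state of a cell, followed through a knockdown experiment in a pancreatic cancer line: the epithelial adhesion genes CDH1 and EPCAM, the mesenchymal cadherin CDH2, the transcription factors ZEB1, ZEB2, SNAI1, SNAI2 and TWIST1, the filament gene VIM and the matrix gene FN1. They were taken by symbol, with no threshold on any measured value, and are 10 of the 70116 gene identifiers in the count table. MiaPaCa-2, an established human line derived from a pancreatic carcinoma, had been transfected with small interfering RNA (siRNA), a short duplex that directs the cell to degrade a matching transcript, and poly(A)-selected RNA was sequenced. The 4 groups were siControl, the cells given the control siRNA, and siSLC25A1, siACLY and siACO1, the cells given an siRNA against the mitochondrial citrate carrier, against ATP citrate lyase and against cytosolic aconitase, with 3 libraries each. All 4 groups share the parental line and the transfection itself, and no untransfected group was analysed. The siRNA sequences, how many siRNAs were used per target and the time after transfection are not given in the sources used here, so a result of a group is a result of its siRNA. The labels do not say that replicates were separate cultures. Each p-value therefore judges a difference between groups against the spread between libraries within groups, which may be technical.

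Epithelial cells hold to each other through E-cadherin (CDH1) and EPCAM, and lose these contacts when they take up a mesenchymal state, in which vimentin filaments (VIM), N-cadherin (CDH2) and secreted fibronectin (FN1) increase. The change is driven by transcription factors of the ZEB, SNAI and TWIST families; ZEB and SNAI proteins repress CDH1 by binding short E-box sequences in its promoter. In the opposite direction the microRNAs of the miR-200 family bind the ZEB1 and ZEB2 transcripts and lower them, and ZEB1 in turn represses the miR-200 genes. Carcinoma cells of the pancreas can lie anywhere between both states, and can hold genes of both at once.

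The libraries held between 24159424 and 43792811 counts. Each siRNA lowered its own target: SLC25A1 was at 8.75% of siControl in siSLC25A1, ACLY at 7.24% in siACLY and ACO1 at 3.72% in siACO1. Replicate 3 of siACO1 stood apart from the other 2 libraries of its group: the chi-square of its counts per degree of freedom was 11.9 and 12.6 against them, while every other pair of replicates lay between 2.31 and 5.85. Some values of siACO1 are therefore also given without it, and all others include it. Markers of other cell types were low, except the fibroblast marker COL1A2. Of 9 fibroblast markers LUM had no count in any library, and the summed level of the 9 without COL1A2 was at most 0.424 CPM. CPM, the unit of all levels here, is a count per 1e6 counts of the scaled library total. COL1A2 itself stood at 885 CPM in siControl and 1575 CPM in siACO1. Of 6 endothelial markers KDR was at 0 in all libraries, and the sum was between 0.16 and 0.704 CPM. Of 7 leukocyte markers PTPRC and CD3E were at 0, and the sum, mostly LYZ and CD14, ran from 1.37 to 3.18 CPM. Of the 10 ductal markers used to check the label, CFTR was at 0 in all 12 libraries and the keratins KRT8 and KRT18 were abundant. In bulk RNA such as this, fewer cells of a type and less RNA per cell cannot be told apart.

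Of the 10 genes, 4 passed the filter on low counts and could be tested: VIM, ZEB1, SNAI1 and FN1. The other 6 did not, and are described by their counts. Per kilobase of annotated exon, VIM was the highest of the 10 in every group, with a mean of 690 CPM per kilobase in siControl against 7.38 for ZEB1, 2.52 for SNAI1 and 0.13 for FN1. The gaps between these neighbours were larger than the spread between libraries in each group. For scale, the epithelial keratins KRT8 and KRT18 stood at 331 and 411 CPM per kilobase in siControl. The tight junction gene CLDN4 stood at 13.2, while CDH1 and EPCAM were close to 0. KRT8, KRT18 and CLDN4 were picked after their values were seen, and the epithelial genes CLDN7 and GRHL2 had 0 counts in all libraries. The bulk RNA thus held the mesenchymal filament transcript and some epithelial transcripts, which need not come from the same cells.

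**Figure D1:**
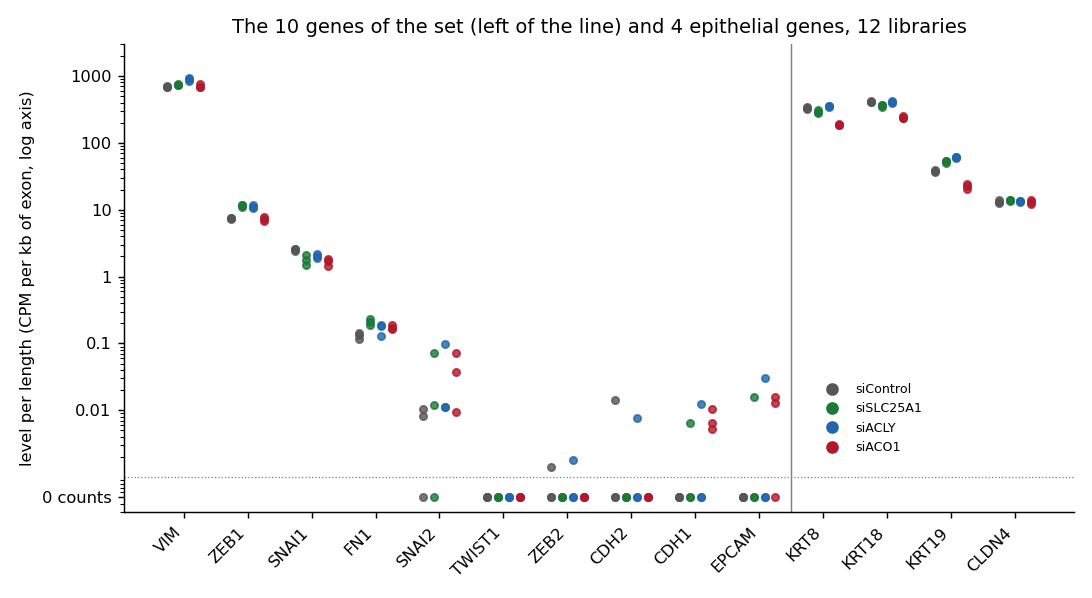
Levels of the 10 genes and of 4 epithelial genes (KRT8, KRT18, KRT19, CLDN4) in each of the 12 libraries, in CPM per kilobase of annotated exon on a log axis, coloured by group; libraries without a count sit on the line marked 0 counts. VIM lies at the top in all groups, ZEB1 between 7.33 and 11.6 on average, and CDH1, EPCAM, CDH2, ZEB2 and TWIST1 lie at or near 0 counts.

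The adhesion genes of the set were nearly silent. CDH1, which encodes E-cadherin and lies on chromosome 16 from 68737225 to 68835548 (plus strand, GRCh38, as all gene positions here), had 0 counts in siControl, 1 in siSLC25A1, 2 in siACLY and 4 in siACO1, 7 in all among 360745727 counts. A count of 0 in the 101572430 counts of siControl allows a level of up to 0.0295 CPM, here without scaling factors, and the 4 counts of siACO1 correspond to 0.0468 CPM (exact Poisson interval at the 95% level, 0.0128 to 0.12). EPCAM, on chromosome 2 from 47345158 to 47387601, had 0, 1, 2 and 2 counts in the same order of groups. For neither gene can a difference between groups be seen at this depth. CDH2, the N-cadherin gene on chromosome 18 from 27950966 to 28177446 (minus strand), had 2 counts in siControl, 1 in siACLY and none in siSLC25A1 or siACO1. Cells with almost no E-cadherin transcript thus had almost no N-cadherin transcript either.

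Among the transcription factors, ZEB2 and TWIST1 were undetectable or nearly so. ZEB2, the paralog of ZEB1 on chromosome 2 from 144364364 to 144524583, had 1 count in siControl and 2 in siACLY. TWIST1, a basic helix-loop-helix factor on chromosome 7 from 19020991 to 19117672, had 0 counts in all 12 libraries, which allows a level of up to 0.00832 CPM over the libraries together. SNAI2, which encodes Slug and lies on chromosome 8 from 48917604 to 48921740, had 0, 1 and 1 counts in the siControl libraries, 7, 1 and 0 in siSLC25A1, 15, 1 and 1 in siACLY and 6, 1 and 4 in siACO1. Summed by group, these are 0.0197 CPM in siControl (0.00238 to 0.0711), 0.102 in siSLC25A1 (0.0438 to 0.2), 0.179 in siACLY (0.104 to 0.287) and 0.129 in siACO1 (0.0643 to 0.23). Replicate 1 of the 3 knockdowns held 28 of the 36 counts in the 9 knockdown libraries, and the other knockdown libraries had 0 to 4 counts each. On the CPM scale the siACLY libraries, at 0.337, 0.0388 and 0.0385, lay above the highest siControl library at 0.0357, but the lower ones are 1 count each, as is that library; the ranges of siSLC25A1 and siACO1 overlap that of siControl. The intervals cover counting error and not the spread between libraries, so no difference is drawn from them.

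VIM was higher in siACLY than in every other group. It encodes the intermediate filament protein of mesenchymal cells (ENSG00000026025.16, chromosome 10, 17228259 to 17237593, plus strand). The siControl libraries had 3523, 3650 and 3501 CPM and the siACLY libraries 4589, 4809 and 4267. All 3 siACLY libraries lay above all 3 of siControl: the means were 4555 ± 273 and 3558 ± 80.7 CPM (SD, n = 3 each), a rise of 0.36 on the log2 scale (SE 0.04, edgeR adjusted p = 2.17e-07). In siSLC25A1 the libraries had 3891, 3813 and 3817 CPM, again above every siControl library but by less. This difference of 0.11 on the log2 scale (SE 0.04) did not pass the test (adjusted p = 0.0813), but did with library totals as the only scaling (0.11, adjusted p = 0.0388) and in a fit of the 2 groups alone (0.11, adjusted p = 0.0104). The siACO1 libraries had 3470, 3538 and 3838 CPM, on both sides of siControl (log2 difference 0.02, SE 0.04, adjusted p = 0.73). The highest of them is replicate 3, without which the difference was -0.03 (adjusted p = 0.628). Of the exon bases of VIM 24.4% overlap genes of the opposite strand, among them VIM-AS1, and whether the counting used the strand is not given in the sources used here. The counts of VIM-AS1 were between 0.0524% and 0.127% of those of VIM in every library.

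ZEB1 rose in siSLC25A1 and siACLY and differed little between siACO1 and siControl. It encodes the zinc finger repressor that binds E-boxes at epithelial genes, and lies on chromosome 10 from 31318495 to 31529814 on the plus strand (ENSG00000148516.23). In siControl its libraries had 64.2, 63.1 and 64.4 CPM. Those of siSLC25A1 had 95.7, 102 and 103, and those of siACLY 91.9, 96.2 and 102. The lowest of these 6 knockdown libraries stood well above the highest siControl library. The rise was 0.65 on the log2 scale in siSLC25A1 (SE 0.05, adjusted p = 1.18e-10), to 157% of the siControl mean, and 0.60 in siACLY (SE 0.05, adjusted p = 2.21e-10), to 151%. siACO1 libraries had 63.2, 67.9 and 59.2 CPM, scattered around siControl, and the difference was -0.01 (SE 0.05, adjusted p = 0.913). Its sign turned without replicate 3 of siACO1 (0.04, adjusted p = 0.605) and with library totals only (0.04, adjusted p = 0.607).

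**Figure D2:**
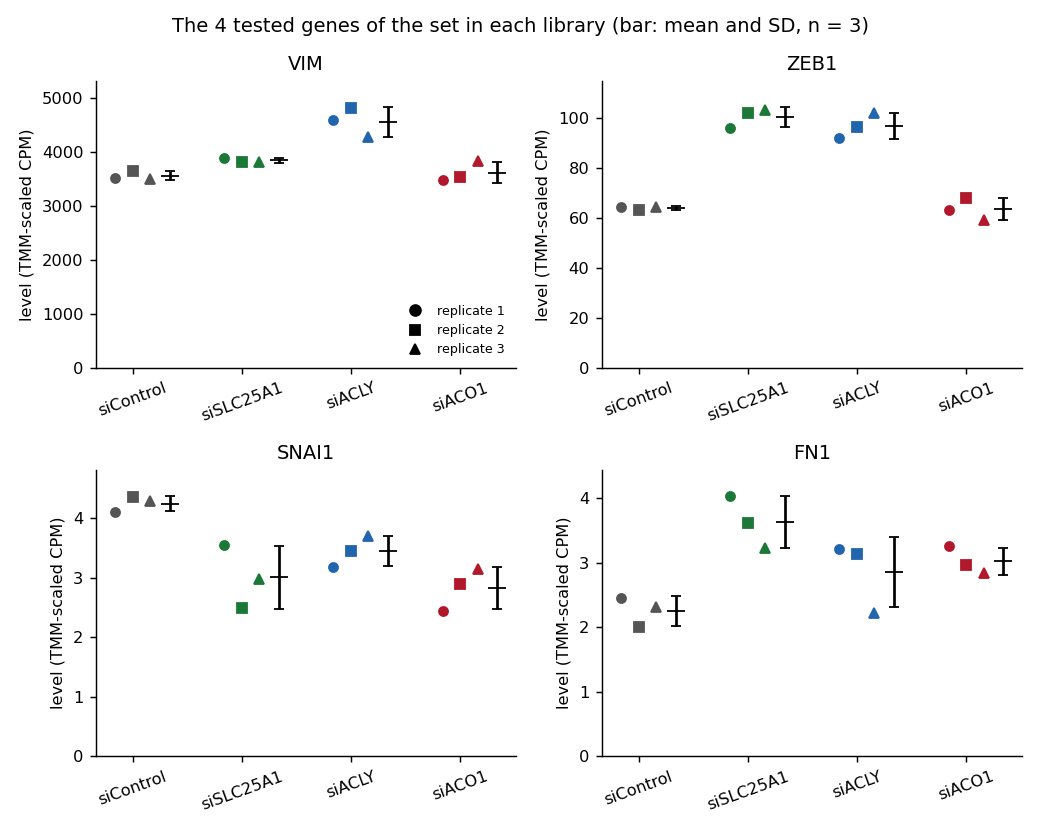
CPM of VIM, ZEB1, SNAI1 and FN1 in each library (points) with the mean and SD of each group of 3 libraries beside them; each panel has its own linear axis. ZEB1 forms a low pair of groups (siControl, siACO1) and a high pair (siSLC25A1, siACLY), and SNAI1 is highest in the siControl libraries.

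The ZEB1 transcript carries matches to the seeds of the miR-200 family, shown here because few other transcripts hold as many. The family has 2 seeds, bases 2 to 8 of the mature microRNA, given here in capitals (RefSeq, GRCh38.p14). All 5 members of the family were found in the table. miR-200a and miR-141 share the seed AACACUG, and the other 3 share AAUACUG.

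hsa-miR-200a-3p: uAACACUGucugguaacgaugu
hsa-miR-141-3p: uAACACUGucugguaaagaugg
hsa-miR-200b-3p: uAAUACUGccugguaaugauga
hsa-miR-200c-3p: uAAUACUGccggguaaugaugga
hsa-miR-429: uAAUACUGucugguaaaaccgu

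The 3′ UTR of the ZEB1 transcript ENST00000320985.14 (1938 bases, GENCODE 29) holds 5 matches to CAGTATT, the DNA complement of the seed shared by miR-200b, miR-200c and miR-429, and 3 matches to CAGTGTT, that of miR-200a and miR-141. The windows below give the match in capitals, named by the base of the UTR at which it starts.

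ZEB1 369: tttatcttatCAGTATTatc
ZEB1 463: aaatccgcttCAGTATTtta
ZEB1 892: tgccatttctCAGTATTttc
ZEB1 1243: ttttacctatCAGTATTatt
ZEB1 1313: tcaaacctggCAGTATTaat
ZEB1 782: tcatcagaatCAGTGTTtgt
ZEB1 1533: tttgatttaaCAGTGTTatg
ZEB1 1773: cttctataaaCAGTGTTggg

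Of 18929 UTRs searched on the transcript strand, 14.8% hold CAGTATT at least once and 6 hold it 5 times or more, ZEB1 and ZEB2 among them. CAGTGTT occurs in 16.7%, and 3 times or more in 171 UTRs (0.903%). The UTR of ZEB2 (5370 bases) has 5 and 4 matches and that of FN1 (1101 bases) 2 and 0. VIM, SNAI1 and CDH1 have none in theirs. A match of letters is not a measured site. The mature microRNAs are not captured by poly(A) libraries, and MIR200CHG, the host transcript of miR-200c and miR-141 on chromosome 12, had 0 counts in all 12 libraries.

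RefSeq promoter windows, of 250 bases before to 50 after a start, were found for 5 of the 10 genes (VIM, FN1, ZEB1, ZEB2 and CDH2), with 7 for ZEB1. The motif CAGGTG, an E-box of the kind that ZEB and SNAI proteins bind, was searched on both strands, where it reads CACCTG on the other strand. It occurs at least once in 20.6% of the 35116 windows of this length, and at least 3 times in 0.6%. The windows of VIM, FN1, ZEB2 and CDH2 hold none and 2 of the 7 ZEB1 windows hold it. The ZEB1 window with 3 matches, shown because the calls of ZEB1 held under all alternatives run, is chr10:31318966-31319265 on the plus strand, with the matches in capitals.

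ZEB1 promoter: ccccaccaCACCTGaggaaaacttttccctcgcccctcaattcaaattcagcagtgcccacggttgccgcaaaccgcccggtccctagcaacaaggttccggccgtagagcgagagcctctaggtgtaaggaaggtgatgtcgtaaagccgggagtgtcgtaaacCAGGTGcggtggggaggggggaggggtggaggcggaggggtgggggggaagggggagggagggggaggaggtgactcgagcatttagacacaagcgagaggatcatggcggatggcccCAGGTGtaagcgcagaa

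ZEB1-AS1, the antisense gene of ZEB1, rose in siACLY and siACO1. It is transcribed from the opposite strand and overlaps 4.2% of the exon bases of ZEB1, and was chosen after its values were seen. Its level was 9.28 ± 0.569 CPM in siControl, 9.63 ± 0.288 in siSLC25A1, 13.5 ± 0.347 in siACLY and 15.5 ± 0.475 in siACO1 (SD, n = 3). The log2 difference from siControl was 0.54 in siACLY (SE 0.08, adjusted p = 7.23e-06) and 0.73 in siACO1 (SE 0.08, adjusted p = 3.59e-08), and did not pass the test in siSLC25A1 (0.05, adjusted p = 0.749). Of the pair, ZEB1 passed the test in siSLC25A1, both did in siACLY, and ZEB1-AS1 did in siACO1. Its counts were 9.07 to 10.0% of those of ZEB1 in the siSLC25A1 libraries and 22.3 to 25.7% in those of siACO1. Without strand, reads from the shared bases cannot be assigned to either gene.

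SNAI1 was lower in the knockdowns than in siControl, and the fall passed the test in siSLC25A1 and siACO1. The gene encodes Snail, the zinc finger repressor of CDH1, and lies on chromosome 20 from 49982999 to 49988886 (ENSG00000124216.4, plus strand). Its level was low, with 61 to 157 counts per library. The siControl libraries had 4.1, 4.35 and 4.29 CPM, those of siSLC25A1 3.55, 2.49 and 2.98, those of siACLY 3.19, 3.45 and 3.7 and those of siACO1 2.45, 2.89 and 3.14. All 9 knockdown libraries lay below all 3 of siControl. SNAI1 fell by 0.58 on the log2 scale in siACO1 (SE 0.15, adjusted p = 0.00363), to 66.6% of siControl, and without replicate 3 of that group the change was -0.66 (adjusted p = 0.00255). In siSLC25A1 the change was -0.49 (SE 0.16, adjusted p = 0.0247). This call was lost on leaving out siControl replicate 2 (-0.47, adjusted p = 0.0734) or 3 (-0.48, adjusted p = 0.0632), or siSLC25A1 replicate 2 (-0.37, adjusted p = 0.147) or 3 (-0.48, adjusted p = 0.0673). In siACLY the value was -0.31 (SE 0.15, adjusted p = 0.106).

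FN1 was weakly expressed, at 58 to 143 counts per library, and rose in siSLC25A1. It encodes fibronectin, a secreted matrix protein whose transcript is usually abundant in mesenchymal cells, and lies on chromosome 2 from 215360440 to 215436172 (ENSG00000115414.21, minus strand). In siControl the libraries had 2.45, 2.0 and 2.32 CPM and in siSLC25A1 4.04, 3.62 and 3.23. All siSLC25A1 libraries were above all of siControl, a rise of 0.69 on the log2 scale (SE 0.17, adjusted p = 0.00423). siACLY had 3.21, 3.14 and 2.23 CPM, of which replicate 3 lay inside the siControl range, and its difference of 0.36 (SE 0.17) had an adjusted p of 0.108. Without that library it was 0.49 (adjusted p = 0.037). siACO1 had 3.26, 2.96 and 2.85 CPM, all above siControl, with a difference of 0.42 (SE 0.17) and an adjusted p of 0.06. This last value fell on the other side of the threshold with library totals only, with a stricter filter on counts and with a replicate block.

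Counted over the whole set, siSLC25A1 against siControl gave 2 higher and 1 lower of the 4 genes tested, where 19.6% of the 16197 genes tested were called in either direction. The siACLY comparison called 2 of the 4 (both higher) against 36.7% of all genes, and siACO1 called 1 (lower) against 37.1%. With so few genes tested, these shares are a description of 4 genes and say nothing of the 6 that had too few counts. The 3 comparisons share the siControl libraries.

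**Figure D3:**
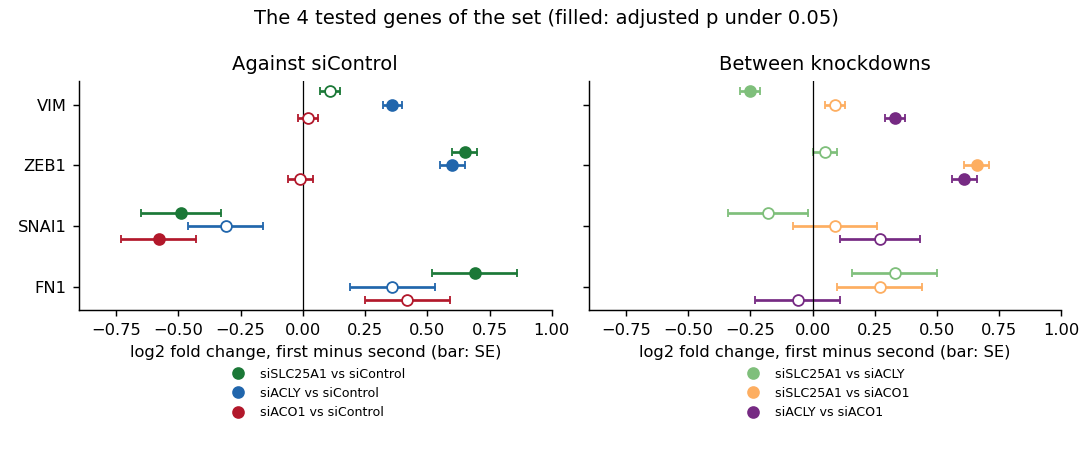
Log2 fold changes of VIM, ZEB1, SNAI1 and FN1 in each knockdown against siControl (left) and between knockdowns (right), with the SE from edgeR as bars; filled points had an adjusted p under 0.05. ZEB1 stands at 0.65 and 0.60 in siSLC25A1 and siACLY and at -0.01 in siACO1, and SNAI1 is below 0 in all 3.

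Set against each other, the knockdowns differed in VIM and ZEB1. VIM was lower in siSLC25A1 than in siACLY by -0.25 on the log2 scale (SE 0.04, adjusted p = 6.41e-05), or 84.3% of its level, and was the 1 gene of the 4 called in that comparison, in which 33.8% of all genes were. ZEB1 did not pass the test there (0.05, SE 0.05, adjusted p = 0.454), and its levels of 100 ± 4.02 and 96.7 ± 5.07 CPM overlapped. ZEB1 was higher in siSLC25A1 than in siACO1 (0.66, SE 0.05, adjusted p = 1.71e-11) and higher in siACLY than in siACO1 (0.61, SE 0.05, adjusted p = 9.49e-11). In each of these comparisons 42.1% of all genes were called. VIM was higher in siACLY than in siACO1 (0.33, SE 0.04, adjusted p = 4.07e-07). Between siSLC25A1 and siACO1 it differed by 0.09 (SE 0.04, adjusted p = 0.116), and by 0.14 (adjusted p = 0.00242) without replicate 3 of siACO1. SNAI1 and FN1 did not pass the test between any pair of knockdowns, with adjusted p from 0.185 to 0.708 for SNAI1 and from 0.133 to 0.814 for FN1.

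Some genes outside the set followed ZEB1 closely over the 12 libraries. Among tested genes of at least 5 mean CPM, the highest Pearson correlations with ZEB1 on the log2(CPM + 0.5) scale were those of NRIP3 (r = 0.987), with group means of 31.6, 68.1, 66.1 and 35.0 CPM in siControl, siSLC25A1, siACLY and siACO1, and of CDCP1, a glycoprotein of the cell surface (r = 0.982, with 73.2, 132, 116 and 66.8 CPM). For VIM they were RCBTB2 and NOP14-AS1, both at 0.958, and both highest in siACLY. For SNAI1 they were ID1, an inhibitor of basic helix-loop-helix factors (0.921), and SYNGR2 (0.897), both highest in siControl. The points fall into 4 groups of 3 libraries, so such a correlation mostly compares 4 group means, and these genes were picked as the highest among all.

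KRT8 and KRT18 fell in siACO1 and siSLC25A1, where the difference of VIM did not pass the test. They encode the paired filament proteins of simple epithelia, and were set beside VIM after their values were seen. In siACO1 KRT8 fell from 2276 to 1279 CPM (log2 change -0.83, SE 0.04, adjusted p = 1.6e-15) and KRT18 from 1324 to 773 CPM (-0.78, SE 0.04, adjusted p = 6.59e-15). In siSLC25A1 they fell by less, to 2009 and 1150 CPM (-0.18, adjusted p = 0.00179, and -0.20, adjusted p = 0.000495). In siACLY, where VIM rose, neither passed the test (0.08, adjusted p = 0.112, and -0.01, adjusted p = 0.874), but KRT8 did as a rise with library totals only (0.13, adjusted p = 0.00628) and in a fit of the 2 groups alone (0.08, adjusted p = 0.0107). The ratio of VIM to KRT8 plus KRT18, each per kilobase, was 0.907, 0.975 and 0.908 in the siControl libraries, 1.11, 1.14 and 1.2 in siSLC25A1, 1.17, 1.21 and 1.11 in siACLY and 1.6, 1.65 and 1.68 in siACO1. Every knockdown library had a higher ratio than every siControl library, and siACO1 had the highest. With the length of 1 principal transcript for each gene, an alternative chosen after seeing the data, the means were 0.994, 1.22, 1.23 and 1.76 in the same order. Of the 31-base stretches in the transcripts of KRT18, 28.1% also occur in other genes, mostly its pseudogenes, and for KRT8 the share was 18.9%, so their counts are uncertain. KRT8 and KRT18 also overlap each other on opposite strands, in 7.6% and 16.3% of their exon bases. The strand setting is not given, so reads from these shared bases may count for either gene.

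**Figure D4:**
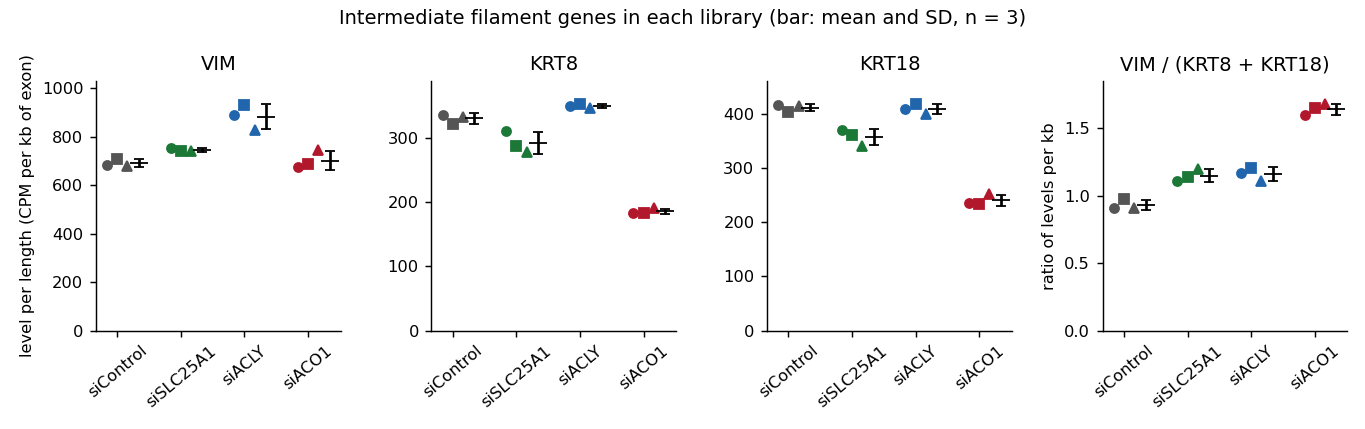
Level of VIM, KRT8 and KRT18 in CPM per kilobase of exon, and the ratio of VIM to the sum of both keratins, in each library by group. The ratio lies between 0.907 and 0.975 in siControl, near 1.1 to 1.2 in siSLC25A1 and siACLY, and between 1.6 and 1.68 in siACO1, where both keratins are lowest.

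The wider epithelial program was examined in 3 lists besides the catenins. Of 16 genes of tight junctions and polarity, 11 were tested, and 3, 4 and 4 of them were called in siSLC25A1, siACLY and siACO1 against siControl (1 higher and 2 lower, 3 and 1, 2 and 2), with median log2 differences of -0.12, -0.16 and -0.10 where the medians of all genes were -0.00, 0.01 and 0.01 and the shares of all genes called 19.6%, 36.7% and 37.1%. All calls in siACO1 of genes named from the lists held without replicate 3 of that group. CGN, which encodes the junction plaque protein cingulin, rose in siACLY from 0.671 to 4.13 CPM (2.62, SE 0.23, adjusted p = 2.35e-10) and in siACO1 to 1.99 CPM (1.55, adjusted p = 9.31e-06). LLGL2, a polarity gene, fell in all 3 (-0.62, -0.33 and -0.32, adjusted p = 2.26e-07, 0.000341 and 0.000631), and CLDN1, a claudin of tight junctions, fell in siACO1 from 20.5 to 11.3 CPM (-0.86, adjusted p = 1.64e-09). CLDN7 and the epithelial regulator GRHL2 had 0 counts in all libraries.

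In the list of 14 desmosome and keratin genes 13 were tested, and in siACO1 8 of them fell, 1 rose and 4 did not pass the test (median -0.25, and -0.26 with the same counts without replicate 3), against 1 higher and 3 lower in siSLC25A1 (median -0.04) and 1 higher and 5 lower in siACLY (-0.01). The shares called were 30.8%, 46.2% and 69.2% in siSLC25A1, siACLY and siACO1, beside 19.6%, 36.7% and 37.1% of all genes. With library totals only, siACO1 had 2 higher and 7 lower (median -0.2) and siACLY 2 higher and 5 lower. DSG2, a cadherin of desmosomes, fell in siACO1 from 28.1 to 10.3 CPM (-1.45, SE 0.09, adjusted p = 6.01e-13) and in siACLY to 18.1 CPM (-0.64, adjusted p = 7.31e-07). KRT19 moved in opposite directions, up in siSLC25A1 (0.45, adjusted p = 8.68e-08) and siACLY (0.67, adjusted p = 1.11e-11) and down in siACO1 (-0.76, adjusted p = 1.83e-12, a value picked after it was seen). JUP, which encodes plakoglobin, was the gene that rose in siACO1 (0.40, adjusted p = 7.16e-06). The sum of the ductal markers, made up mostly of these keratins, was 2322 to 2440 CPM in siACO1 against 3853 to 4008 in siControl.

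Of 18 epithelial regulators, splicing factors and surface genes 10 were tested. The calls were 1 higher and 2 lower in siSLC25A1, 1 and 2 in siACLY and 2 and 3 in siACO1, with medians of -0.10, 0.02 and -0.08. These are 3, 3 and 5 of the 10 genes tested, beside 19.6%, 36.7% and 37.1% of all genes. With 10 genes, no difference from all genes is drawn from these shares. In siACLY 4 were called with library totals only (2 higher and 2 lower). The mucin gene MUC1 fell in all 3, from 20.5 CPM to 14.4, 10.4 and 12.0 (-0.51, -0.98 and -0.77, adjusted p = 0.000152, 2.53e-09 and 1.35e-07). GRHL1, a grainyhead factor related to GRHL2, rose in siSLC25A1 from 1.49 to 2.77 CPM (0.88, adjusted p = 0.00152). A list of 14 genes held catenins, classical cadherins and their partners CTNNBIP1, AFDN and VCL, and 8 were tested. In siSLC25A1 3 were higher and none lower (median 0.11), and in siACLY 2 and none (0.12). In siACO1 there were 2 and 2 (-0.06, and 3 and 2 without replicate 3). This makes 3, 2 and 4 of 8 genes called. The 2 higher genes were CTNNBIP1 and VCL in both siACLY and siACO1, so none was a catenin or cadherin. CTNNBIP1 and AFDN were 2 of the 3 in siSLC25A1. CTNNBIP1, an inhibitor of beta-catenin, rose in all 3 (0.43, 0.25 and 0.49, adjusted p = 1.88e-06, 0.000855 and 4.05e-08). CTNNA1, alpha-catenin, fell in siACO1 (-0.31, adjusted p = 1.25e-07).

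Mesenchymal genes changed in both directions. In the list of 29 surface and matrix genes, without VIM and FN1, 17 were tested. The calls were 6 higher and 2 lower in siSLC25A1 (median 0.07), 3 and 5 in siACLY (-0.08) and 8 and 5 in siACO1 (0.09, and 0.11 with the same counts without replicate 3). That is 47.1%, 47.1% and 76.5% of those tested, where 19.6%, 36.7% and 37.1% of all genes were called. TGFBI, a matrix protein induced by TGF-beta, rose in siSLC25A1 and siACLY from 27.7 to 37.1 and 39.9 CPM (0.41 and 0.52, adjusted p = 4.45e-05 and 4.86e-07) and fell in siACO1 to 17.5 CPM (-0.67, adjusted p = 1.75e-08). The receptor tyrosine kinase gene AXL fell in siACLY (-0.40, adjusted p = 2.12e-09). COL1A2, a chain of collagen I, rose in siACO1 from 885 to 1575 CPM (0.83, SE 0.04, adjusted p = 6.1e-16), and COL5A1 from 3.06 to 6.21 CPM (1.02, adjusted p = 6.47e-07). COL1A1, the other chain of collagen I, stood at 0.184 CPM in siControl and 0.0777 in siACO1. COL1A2 is also a fibroblast marker, and the other markers of that list summed to 0.107 to 0.388 CPM in siControl and 0.0804 to 0.292 CPM in siACO1.

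**Figure D5:**
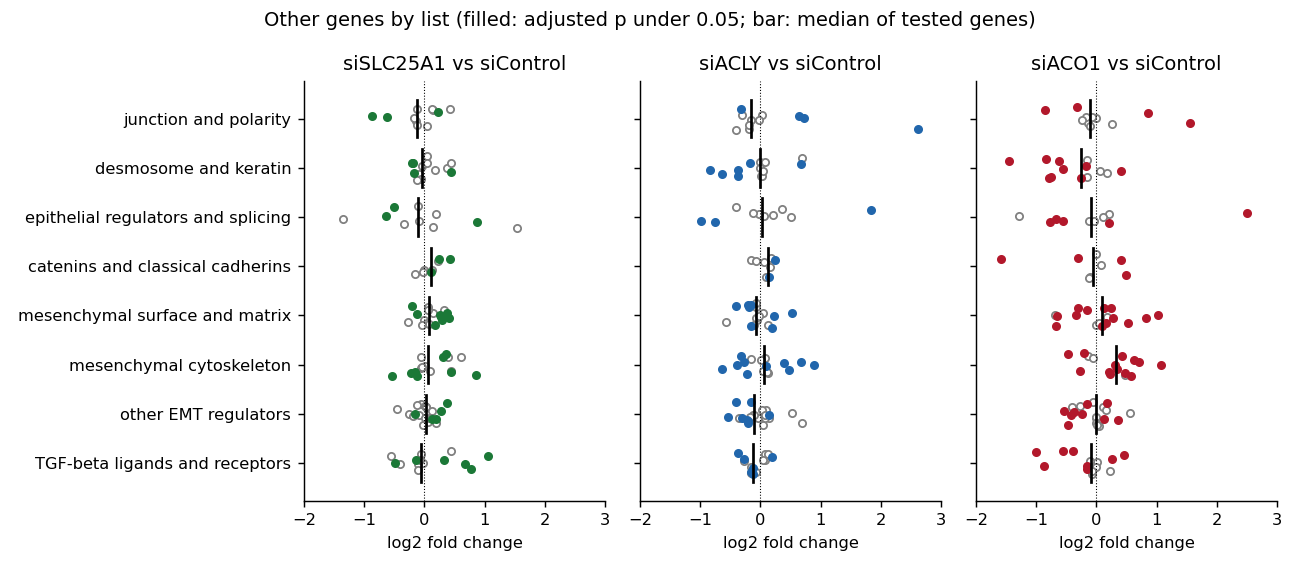
Log2 fold change of each tested gene of 8 lists around the epithelial and mesenchymal states, in the 3 knockdowns against siControl; each point is a gene, filled points were called and the vertical bar is the list's median. Points of the desmosome and keratin list lie mostly below 0 in siACO1 (8 lower, 1 higher) and those of the mesenchymal cytoskeleton list mostly above (10 higher, 3 lower).

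Of 17 genes of the mesenchymal cytoskeleton 16 were tested. In siACO1 10 were higher and 3 lower (median 0.32, and 10 and 4 with a median of 0.25 without replicate 3), against 4 and 4 in siSLC25A1 (0.05) and 5 and 5 in siACLY (0.06). The genes called were 13 of 16 in siACO1, 8 in siSLC25A1 and 10 in siACLY, beside 37.1%, 19.6% and 36.7% of all genes. NES, the nestin filament gene, rose in siACO1 from 3.91 to 8.22 CPM (1.07, SE 0.14, adjusted p = 3.09e-07). S100A4, a calcium-binding protein of motile cells, rose in siACO1 from 361 to 590 CPM (0.71, adjusted p = 3.91e-05) and fell in siSLC25A1 (-0.54, adjusted p = 0.000813) and siACLY (-0.39, adjusted p = 0.00375). FSCN1, the actin bundler fascin, rose in siSLC25A1 from 40.3 to 73.1 CPM (0.86, adjusted p = 4.65e-12), and TAGLN, an actin-binding protein of smooth muscle, rose in siACLY from 7.85 to 14.6 CPM (0.89, adjusted p = 7.15e-08).

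Among 27 other regulators of the transition 21 were tested. The calls were 4 higher and 1 lower in siSLC25A1 (median 0.03), 1 and 7 in siACLY (-0.10) and 3 and 6 in siACO1 (-0.01). These shares of 23.8%, 38.1% and 42.9% are near those of all genes (19.6%, 36.7% and 37.1%). In siACLY the calls of this list became 6 higher and 5 lower (52.4%) with library totals only, so their direction depended on the scaling. TCF3, the basic helix-loop-helix factor that gives E12 and E47, fell in siACLY from 420 to 291 CPM (-0.53, adjusted p = 4.48e-11) and in siACO1 to 301 CPM (-0.48, adjusted p = 2.26e-10). It fell by less in siSLC25A1, to 379 CPM (-0.15, adjusted p = 0.0115). TWIST2 and PRRX1 had 0 counts in all libraries. Of 15 TGF-beta ligands, receptors and signalling genes 14 were tested. In siSLC25A1 4 were higher and 2 lower (median -0.06), against 1 and 5 in siACLY (-0.13) and 2 and 6 in siACO1 (-0.09). Without replicate 3 of siACO1 the counts were the same and the median was -0.04. The shares called were 42.9%, 42.9% and 57.1% of those tested. With library totals only, the siACLY calls were 1 higher and 2 lower, or 21.4%. TGFBR2, the type II receptor that begins TGF-beta signalling, had at most 1 count in any library. LTBP2, which binds the fibrils of the matrix, rose in siSLC25A1 from 34.3 to 71.5 CPM (1.06, adjusted p = 2.94e-08). TGFB3, a ligand, rose in siSLC25A1 (0.77, adjusted p = 9.27e-05) and fell in siACO1 (-0.87, adjusted p = 4.09e-05), while the ligand TGFB1 rose in siACO1 (0.46, adjusted p = 3.35e-05).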

How the data were processed

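The authors deposited whole-number counts per gene for 12 libraries, not normalized, per the file headers. The submitters' processing notes name CASAVA, FastQC, Trim Galore, STAR 2.7.0e, DESeq2 and the builds GRCh38 and GRCm39, with no roles. The counting tool, the annotation and the strand setting are not given in the sources used here. Of the gene identifiers, 89.4% matched a symbol. Totals of 24159424 to 43792811 counts set the precision.

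The 16197 genes that passed filterByExpr were scaled by TMM. A robust quasi-likelihood model (edgeR 4.0.16 in R 4.3.3) held the 12 libraries and left 8 residual degrees of freedom, and each comparison was a two-sided F test. Adjusted p-values are Benjamini-Hochberg values over these genes, from this model unless a sentence says otherwise, and calls were made below 0.05. Levels are TMM-scaled CPM, relative to each library's total. Exon lengths and positions are from GENCODE 29 on GRCh38. Poisson intervals (exact, 95%) and limits from 3 counts cover counting error. Scripts were tested on simulated data. Alternatives were DESeq2 1.42.0 and its size factors, library totals, other filters, the 2 groups alone, a replicate block and leaving out each library.

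The named genes are the 10 genes of the set in all 6 comparisons, the 3 targets, the 2 genes most like each of the 3 most abundant of the set, and from each list the 2 largest called rises and falls among genes that reached 1 CPM on average in either group and did not overlap siControl, of which some are not reported here. Genes named only for their level (CLDN4, CLDN7, GRHL2, TWIST2, PRRX1, TGFBR2, COL1A1, MIR200CHG) were picked after their values were seen. The members and lists were chosen with earlier results of these data known.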

Additional observations from a re-analysis of the deposited data

How the results depend on the processing

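Direction and side of the threshold held under every alternative run for ZEB1 in siSLC25A1 and siACLY and for VIM in siACLY against siControl, with ranges on leaving out 1 library of 0.63 to 0.68, 0.55 to 0.63 and 0.31 to 0.40. The number of the set's genes called in siACO1 against siControl became 2 with library totals only, with at least 10 counts required in every library, and with a replicate block, FN1 being added each time (0.47, 0.43 and 0.43, adjusted p = 0.0373, 0.0491 and 0.0463). Between siSLC25A1 and siACO1 it ran from 1 to 2 on leaving out 1 library. Signs that turned were those of differences that had not passed the test: VIM in siACO1 (-0.03 to 0.05 on leaving out 1 library), ZEB1 in siACO1 (0.04 with library totals only, -0.06 to 0.04 on leaving out 1 library), SNAI1 between siSLC25A1 and siACO1 (-0.06 to 0.21), FN1 between siACLY and siACO1 (-0.17 to 0.08), and KRT18 in siACLY (0.03 with library totals only, 0.00 with at least 10 counts in every library, -0.03 to 0.00 on leaving out 1 library). The cause was not tested. Library totals moved the share of higher genes among all called from 50.1 to 61.0% in siACLY, from 47.9 to 59.4% in siACO1, and from 51.8 to 41.0% between siSLC25A1 and siACLY.

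Whether the replicate numbers pair the samples could not be settled, since residuals centred within groups of 3 libraries give correlations tied to each other. Residuals of libraries with the same number correlated between -0.0443 and 0.0903 and those with different numbers between -0.0784 and 0.0996. A library correlated best with its own number in 20 of 36 checks, each made among the 3 libraries of another group. Depth limits CDH1, CDH2, EPCAM, ZEB2, SNAI2 and TWIST1, which were under the filter on counts.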

Other observations

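LYZ, the lysozyme gene and 1 of the 2 leukocyte markers that could be tested, was picked after its values were seen. It rose in all 3 knockdowns from 0.835 CPM to 1.78, 2.06 and 1.98 (log2 differences 1.12, 1.31 and 1.27, edgeR adjusted p = 0.00114, 5.63e-05 and 8.35e-05), while PTPRC and CD3E had no count. The exons of LYZ overlap a gene of the opposite strand in part, so its counts are uncertain. CD14, the other marker tested, was not called in any knockdown. It stood at 0.638 CPM in siControl, 0.411 in siSLC25A1, 0.43 in siACLY and 0.838 in siACO1.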
